A study of Rattus norvegicus with 16 samples.

Results

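The genes described here are 48 genes of the rat cell cycle, 13 that act in S phase, when the genome is copied, and 35 that act in mitosis and the division of the cell. A gene was taken by its symbol from the platform annotation of the array, and where several rows of the table carried a symbol the row with the highest mean was used. Of the 48 genes, 44 had a row of their own among the 36685 rows (TranscriptClusterIDs) of the table, 12 of S phase and 32 of mitosis. Rrm1, Cenpe, Birc5 and Anln had no row of their own in the table used here. The RNA came from the superficial renal cortex of 16 male Sprague Dawley rats aged 7 weeks, 4 in each of 4 groups and 1 array (RaGene-2_0-st) per rat. FHS rats (13 to 16) drank 20% fructose and ate the high-salt chow (4% NaCl), and CHS rats (9 to 12) drank water with the same chow. FNS rats (5 to 8) drank 20% fructose and ate the standard chow, called normal-salt, and CNS rats (1 to 4) drank water with that chow. Every group was kept on its diet for 7 days. The labels name no engineered allele and no treatment other than the diet. The base chows came from different makers and differed in protein, carbohydrate and energy as well as in NaCl, so these cannot be told apart in any comparison of high-salt with normal-salt rats. The rats were housed in pairs, the labels give no cages, and each rat was treated as independent. The p-values therefore measure the spread between rats, which cage mates may share.

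A dividing cell first loads the helicase of replication onto its DNA, then makes deoxynucleotides and copies the genome behind a sliding clamp. Later it activates the kinase Cdk1 with cyclins A and B, builds a spindle, holds anaphase back until every chromosome is attached, and splits at a central spindle. In human and mouse cells the S phase genes are mainly driven by E2F factors, while the mitosis genes are held off and later activated through a promoter element called the cell cycle genes homology region (CHR), often beside CCAAT boxes bound by NF-Y. The tubule cells of the adult renal cortex divide rarely, and their division is best known from growth of the young kidney and from repair after injury.

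The promoters of the S phase genes and of the mitosis genes differed in the short words they held, which is why a few are shown. RefSeq promoter windows of GRCr8 (250 bases before the start of the gene and 50 after it) were matched by gene ID for 36 of the 44 genes, 8 of S phase and 28 of mitosis. For Cdkn3 and Kif2c, which have several entries, the first was taken. Mcm4, Cdc6, Rrm2, Ccne2, Ccna2, Pbk, Aurkb and Tpx2 were not matched. Each window was searched on both strands for the CHR (TTTGAA or TTCGAA), for CCAAT, and for an E2F core, which was taken as TTCCCGC or as TTGGCGC, and also in the forms TTCGCGC and, last, TTGCCGC. A CHR was found in 67.9% of the mitosis promoters, 25.0% of the S phase promoters and 19.7% of all 33469 promoters of the table. A CHR together with CCAAT was found in 60.7% of mitosis, 12.5% of S phase and 7.95% of all promoters. The E2F core went the other way, with 75.0% of S phase, 21.4% of mitosis and 9.52% of all promoters. CCAAT on its own was found in 71.4% of mitosis, 75.0% of S phase and 37.5% of all promoters, which is alike for both. The searched words can overlap one another, a match is a description of the letters only, and 2 of the mitosis genes shown here, Mki67 and Kif23, also held an E2F core. The windows below are those of 3 mitosis genes whose signal was low in FHS rats, with the CHR and CCAAT in capitals, and of 2 S phase genes, with the E2F core in capitals. The low signal did not follow these words gene by gene. Mcm5, an S phase gene shown, was also lower in FHS rats than in CHS rats. Cdca8, a mitosis gene that was not lower there, held a CHR and CCAAT too. Each window is printed 5′ to 3′ on the strand of the gene.
Top2a, chr10:84473044-84473343, minus strand: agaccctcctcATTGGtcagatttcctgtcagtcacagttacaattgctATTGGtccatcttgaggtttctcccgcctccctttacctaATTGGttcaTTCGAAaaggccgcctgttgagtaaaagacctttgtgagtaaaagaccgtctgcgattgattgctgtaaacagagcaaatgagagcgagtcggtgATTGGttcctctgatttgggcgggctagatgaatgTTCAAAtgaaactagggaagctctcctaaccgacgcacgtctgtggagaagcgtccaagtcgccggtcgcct
Mki67, chr1:199952544-199952843, minus strand: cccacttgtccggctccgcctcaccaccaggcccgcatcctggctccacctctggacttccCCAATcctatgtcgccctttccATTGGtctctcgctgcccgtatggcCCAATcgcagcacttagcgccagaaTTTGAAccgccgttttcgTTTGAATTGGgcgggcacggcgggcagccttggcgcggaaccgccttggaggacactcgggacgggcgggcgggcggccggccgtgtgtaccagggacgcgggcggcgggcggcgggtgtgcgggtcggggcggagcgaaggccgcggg
Kif23, chr8:71320535-71320834, minus strand: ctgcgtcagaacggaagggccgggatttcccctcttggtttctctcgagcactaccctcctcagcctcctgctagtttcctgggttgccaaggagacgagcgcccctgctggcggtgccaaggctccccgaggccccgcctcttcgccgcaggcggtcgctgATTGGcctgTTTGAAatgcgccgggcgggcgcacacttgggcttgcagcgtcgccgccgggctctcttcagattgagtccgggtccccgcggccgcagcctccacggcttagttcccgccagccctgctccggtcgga
Mcm5, chr19:13488563-13488862, plus strand: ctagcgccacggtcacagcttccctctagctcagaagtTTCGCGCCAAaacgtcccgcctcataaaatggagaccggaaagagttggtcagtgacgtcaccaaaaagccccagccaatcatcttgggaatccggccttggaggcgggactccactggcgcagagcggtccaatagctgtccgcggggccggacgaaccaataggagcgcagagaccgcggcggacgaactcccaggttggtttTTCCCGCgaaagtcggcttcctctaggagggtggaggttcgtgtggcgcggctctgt
Tyms, chr9:120776034-120776333, minus strand: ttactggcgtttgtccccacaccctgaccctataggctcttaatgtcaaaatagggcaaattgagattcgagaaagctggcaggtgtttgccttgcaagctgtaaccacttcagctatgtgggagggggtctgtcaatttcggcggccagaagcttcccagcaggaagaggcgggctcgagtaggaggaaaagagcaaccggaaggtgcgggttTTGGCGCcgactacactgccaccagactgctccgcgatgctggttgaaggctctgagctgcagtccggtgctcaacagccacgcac
In Top2a the CHR words begin at −152 and −22 from the start of the gene, in Mki67 at −117 and −99, and in Kif23 at −79, with a CCAAT box at −88. In Mcm5 the E2F words begin at −212, −209 and −7, the first 2 overlapping, and in Tyms at −36.

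The log2 value of a gene on the array is a measure of its RNA in the tissue as a whole, and in such bulk samples fewer dividing cells and less RNA per dividing cell cannot be told apart. Values of different genes come from different probes, so only differences between rats are compared. Differences are fructose minus water, or high-salt minus normal-salt chow, on the log2 scale, and each was tested with limma over all 16 arrays, and the adjusted p is that of Benjamini and Hochberg for 36685 rows. SE is the standard error of a difference. Array medians were 5.33 to 5.44 in FHS rats, 5.25 to 5.34 in CHS rats, 5.27 to 5.33 in FNS rats and 5.26 to 5.29 in CNS rats. Centring every array on its median, like quantile normalization, left in place the direction of each median difference over the 44 genes and over their S phase and mitosis genes, but centring turned the median of all rows for FHS minus CHS to −0.04. The mean log2 value of 8 proximal tubule markers, which define the tissue, was between 11.96 and 12.33 in every rat. It ran from 11.96 to 12.33 in FHS rats and from 12.03 to 12.24 in CHS rats. In FNS rats it ran from 12.12 to 12.20, above all CNS rats (12.02 to 12.07).

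**Figure D1:**
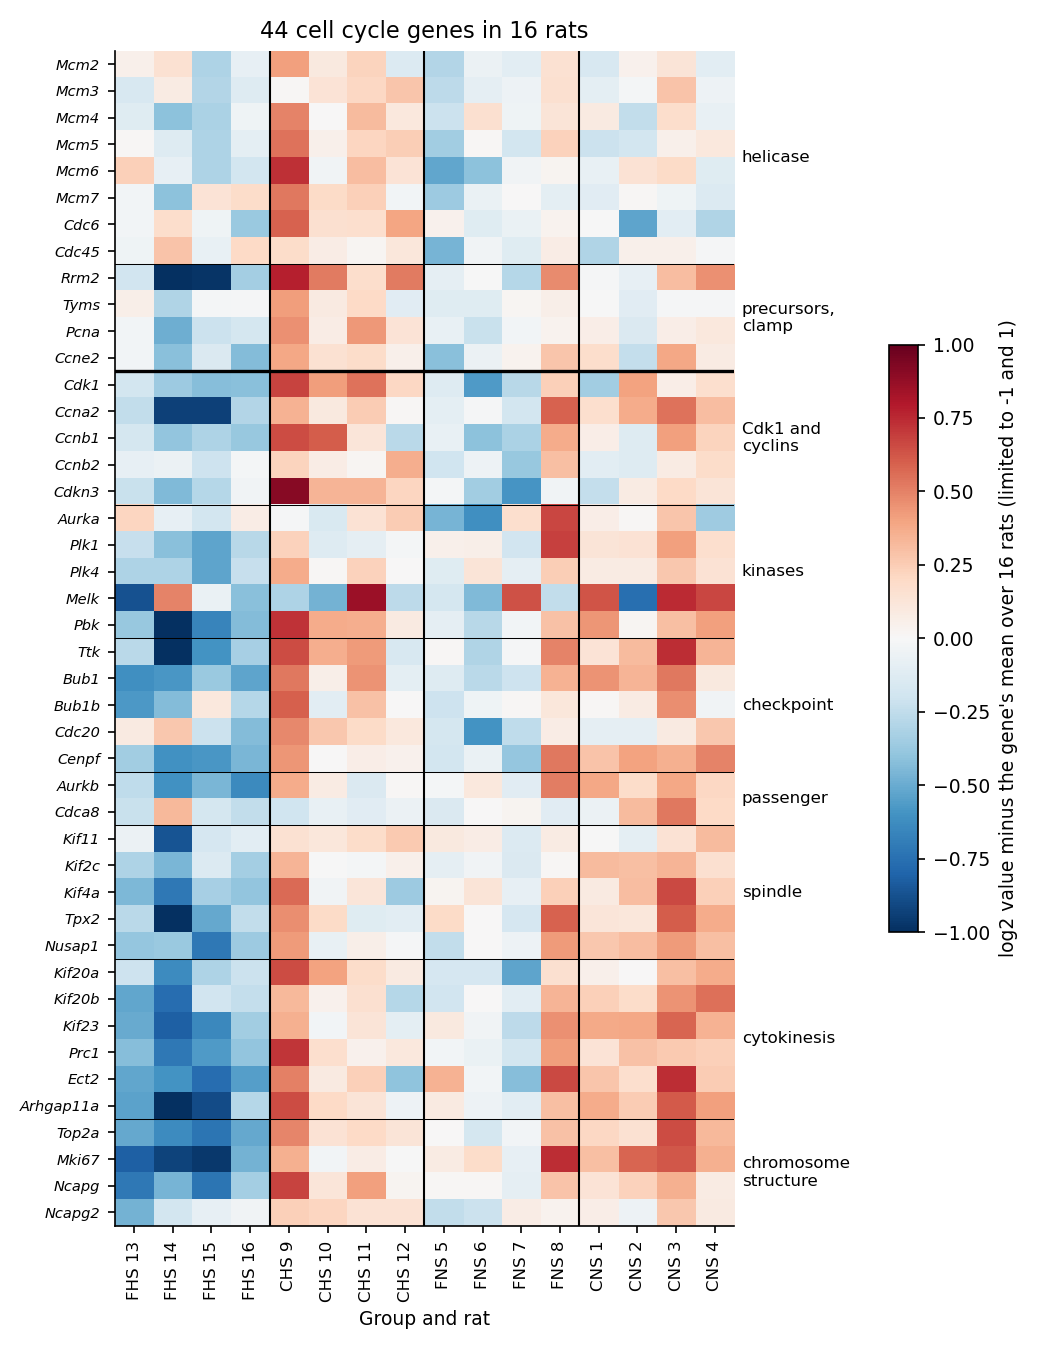
Each row is 1 of the 44 genes and each column 1 rat, and the colour is the log2 value minus the mean of the gene over all 16 rats, limited to −1 and 1. Thin lines part the roles, and the thick line parts the S phase genes (above) from the mitosis genes. The 4 FHS columns are mostly blue, and the CHS column of rat 9 and the FNS column of rat 8 are redder than those of the other rats in their groups.

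Taken as a mean over genes, the mitosis signal was lowest in the rats given fructose with the high-salt chow. For the S phase genes these rats overlapped the FNS and CNS rats. In FHS rats against CHS rats, 43 of the 44 genes had a log2 difference below 0, as did 43.6% of all rows. Of the 44, 35 were lower at an unadjusted p under 0.05, where 3.57% of all rows were. None was higher at that level, where 6.06% of all rows were. The median difference was −0.50 over the 44 genes, or 0.708 of the CHS level, while the median of all rows was 0.03. The 4 FHS rats lay below all 4 CHS rats in 29 of the 44 genes, against 2.13% of all rows. No gene of the set passed after adjustment over all rows, the lowest adjusted p being 0.0900 for Top2a, and 1 row of the whole table did (0.00273%). With the dimmer rows of the table left out before adjustment, Top2a, Pbk, Mki67 and Ncapg passed. The share of the kept rows that passed is not given here, so these 4 genes cannot be set against it. By phase, 8 of 12 S phase genes and 27 of 32 mitosis genes were lower at the unadjusted level. Leaving out any of the 16 rats in turn gave 32 to 38 lower genes and medians from −0.58 to −0.43. CHS rat 9 was the highest of its group, and without it 33 genes were lower, with a median of −0.43.

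**Figure D2:**
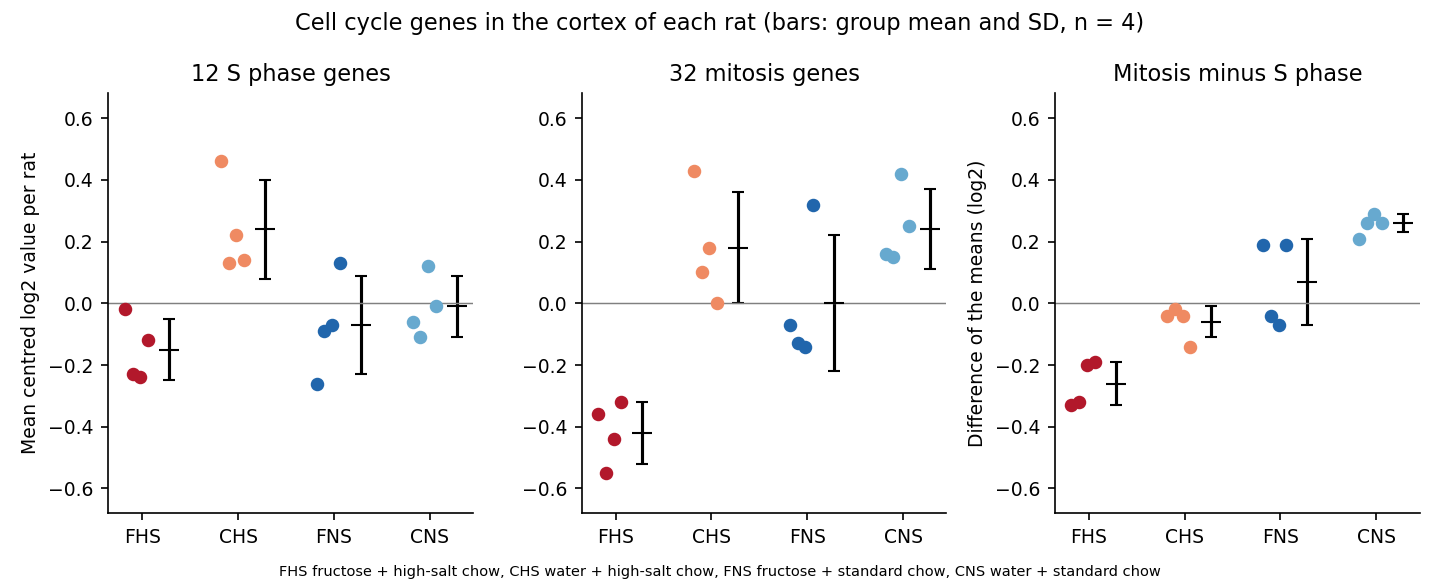
Each point is 1 rat. The left and middle panels give the mean over the S phase or mitosis genes of the log2 values, each gene centred on its mean over all 16 rats, and the right panel gives the mitosis mean minus the S phase mean, with bars for the mean and SD of 4 rats. The 4 FHS rats lie lowest for mitosis, at −0.55 to −0.32, and the mitosis minus S phase values of the CNS rats, 0.21 to 0.29, lie above those of every other rat.

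The 6 Mcm genes encode the subunits of the replicative helicase, Cdc6 loads that helicase onto origins, and Cdc45 joins it when it starts. All 8 had a difference below 0 in FHS rats against CHS rats, with a median of −0.33, and 5 were lower at an unadjusted p under 0.05. Mcm4 read 7.89, 7.60, 7.70 and 7.97 in FHS rats, against 8.51, 8.02, 8.33 and 8.12 in CHS rats. With the normal-salt chow Mcm4 read 7.80, 8.17, 7.97 and 8.14 in FNS rats and 8.10, 7.77, 8.19 and 7.94 in CNS rats. The high-salt groups did not overlap for this gene and the normal-salt groups did. Its difference was −0.46 (SE 0.13, unadjusted p = 0.00366, and 0.311 after adjustment by limma) for FHS against CHS, and 0.02 (SE 0.13) for FNS against CNS. Cdc45 was the helicase gene that differed least, with 5.56, 5.89, 5.53 and 5.80 in FHS rats against 5.79, 5.68, 5.62 and 5.72 in CHS rats. Its FNS rats read 5.14, 5.57, 5.48 and 5.68 and its CNS rats 5.30, 5.65, 5.65 and 5.59, all 4 groups overlapping, and the 95% interval of FHS minus CHS ran from −0.27 to 0.26.

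Rrm2, the small subunit of ribonucleotide reductase, makes deoxynucleotides, Tyms makes thymidylate, Pcna is the sliding clamp, and Ccne2 is a cyclin that drives entry into S phase. Rrm2 had the largest difference of the 44 genes for FHS minus CHS. It read 7.98, 6.95, 7.19 and 7.83 in FHS rats and 8.95, 8.69, 8.35 and 8.69 in CHS rats, so that the highest FHS rat was below the lowest CHS rat. In FNS rats it read 8.08, 8.17, 7.89 and 8.65 and in CNS rats 8.16, 8.09, 8.48 and 8.63, which overlapped. The difference was −1.19 (SE 0.22, unadjusted p = 8.53e-05, and 0.105 after adjustment by limma) on the high-salt chow, 2.27-fold lower, and −0.14 (SE 0.22) on the normal-salt chow. A dimmer row of the same symbol gave −0.60 (SE 0.20, adjusted p = 0.381 from limma), so the size of the Rrm2 difference depends on the row. Tyms differed less and its rats overlapped, with 9.61, 9.25, 9.53 and 9.54 in FHS rats and 9.97, 9.64, 9.75 and 9.44 in CHS rats. The values were 9.43, 9.43, 9.57 and 9.61 in FNS rats and 9.55, 9.44, 9.54 and 9.54 in CNS rats. The Tyms difference for FHS minus CHS was −0.21 (SE 0.11, unadjusted p = 0.0724, and 0.556 after adjustment by limma). Pcna and Ccne2 had differences of −0.50 and −0.45 (unadjusted p = 0.000724 and 0.0113), with no overlap of the rats.

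Cdk1 is the kinase that starts mitosis, cyclins A2, B1 and B2 (Ccna2, Ccnb1, Ccnb2) activate it, and Cdkn3 is a phosphatase that acts on cyclin-dependent kinases. All 5 had a difference below 0 in FHS rats against CHS rats and 4 were lower at the unadjusted level, with a median of −0.69. Cdk1 read 6.15, 5.97, 5.91 and 5.92 in FHS rats, against 7.01, 6.75, 6.88 and 6.54 in CHS rats. The FNS rats had 6.21, 5.77, 6.06 and 6.57, against 5.99, 6.74, 6.40 and 6.50 in CNS rats. Only on the high-salt chow did the rats of the groups not overlap, and CHS rats stood above most of the CNS rats. The Cdk1 difference was −0.81 (SE 0.17, unadjusted p = 0.000287, and 0.147 after adjustment by limma) for FHS minus CHS. Ccnb2 differed least, with 8.58, 8.60, 8.45 and 8.64 in FHS rats and 8.88, 8.73, 8.68 and 9.02 in CHS rats. Its FNS rats read 8.46, 8.61, 8.28 and 8.96 and its CNS rats 8.55, 8.53, 8.74 and 8.84. The high-salt groups of Ccnb2 did not overlap although its difference, −0.26, had an unadjusted p of 0.069. A dimmer row of Ccnb2 gave −0.63 (unadjusted p = 0.00317).

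The kinases are Aurka and Plk1, which act at the centrosome and at the entry into mitosis, Plk4, which starts the copying of the centriole, and Melk and Pbk, kinases made in dividing cells. Of these 5, Plk1, Plk4 and Pbk were lower at the unadjusted level in FHS rats. Pbk read 6.28, 5.49, 6.0 and 6.22 in FHS rats, against 7.38, 7.03, 7.02 and 6.75 in CHS rats. In FNS rats it read 6.57, 6.38, 6.63 and 6.95, against 7.10, 6.68, 6.96 and 7.07 in CNS rats. Rat 14 was the lowest of the FHS rats, and every FHS rat was below every other rat in the series. The Pbk difference was −1.05 (SE 0.18, unadjusted p = 2.91e-05, and 0.0947 after adjustment by limma) on the high-salt chow, 2.07-fold lower. Aurka overlapped in all groups. It read 6.36, 6.06, 5.96 and 6.22 in FHS rats and 6.13, 5.99, 6.29 and 6.40 in CHS rats, and 5.68, 5.53, 6.31 and 6.81 in FNS rats and 6.21, 6.16, 6.42 and 5.79 in CNS rats. The FNS rats spanned the values of all other groups, and the 95% interval of FHS minus CHS, −0.53 to 0.43, holds differences of the size seen for Plk4 as well as none. Melk varied most between rats of the same group (SE 0.38), with values of 5.66 to 7.03 within FHS and 5.78 to 7.28 within CNS.

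Ttk, Bub1 and Bub1b are kinases or kinase-like proteins of the spindle checkpoint, Cenpf sits on the kinetochore, and Cdc20 activates the ligase that starts anaphase. All 5 had a difference below 0 in FHS rats, 4 of them at an unadjusted p under 0.05, with a median of −0.64. Bub1 read 5.18, 5.21, 5.42 and 5.26 in FHS rats, against 6.32, 5.85, 6.24 and 5.69 in CHS rats. In FNS rats it read 5.66, 5.52, 5.58 and 6.14, and in CNS rats 6.24, 6.13, 6.32 and 5.89. The FHS values were close together and lay below all the other 12 rats, while FNS rat 8 reached into the CNS range. The Bub1 difference was −0.76 (SE 0.16, unadjusted p = 0.000236, and 0.143 after adjustment by limma) on the high-salt chow and −0.42 (SE 0.16, unadjusted p = 0.0181, and 1 after adjustment by limma) on the normal-salt chow. Cdc20 overlapped between groups, with 7.10, 7.28, 6.79 and 6.57 in FHS rats and 7.49, 7.28, 7.20 and 7.11 in CHS rats. Its FNS rats read 6.83, 6.41, 6.75 and 7.08, its CNS rats 6.92, 6.92, 7.10 and 7.28, and its differences were −0.33 and −0.29 with fructose on the high-salt and normal-salt chow (unadjusted p = 0.0595 and 0.1). Ttk had a difference of −1.07 (SE 0.29), in which FHS rat 14, at 4.12, was far below the other FHS rats at 5.33 to 5.66.

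Aurkb is the kinase of the chromosomal passenger complex, which corrects wrong attachments of the spindle, and Cdca8 (borealin) is another subunit. Aurkb read 5.96, 5.61, 5.76 and 5.58 in FHS rats, against 6.59, 6.30, 6.07 and 6.23 in CHS rats. In FNS rats it read 6.20, 6.32, 6.10 and 6.73, against 6.60, 6.40, 6.60 and 6.42 in CNS rats, so the FHS rats were below all others. Its difference was −0.57 (SE 0.14, unadjusted p = 0.00105, and 0.229 after adjustment by limma) on the high-salt chow. Cdca8 was the gene of the 44 with a difference above 0 for FHS minus CHS, 0.03 (SE 0.13), which became −0.04 with arrays centred or quantile normalized. It read 4.59, 5.14, 4.64 and 4.57 in FHS rats and 4.61, 4.74, 4.70 and 4.75 in CHS rats, and 4.67, 4.82, 4.84 and 4.70 in FNS rats and 4.75, 5.13, 5.34 and 5.01 in CNS rats. FHS rat 14 alone was high, and without a rat in turn the difference ran from −0.10 to 0.09. Cdca8 is among the 3 genes, with Cdc6 and Bub1b, whose mean lay below the median of all rows.

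Kif11, Kif4a and Kif2c are kinesins that push spindle poles apart, shape chromosomes or shorten microtubules, Tpx2 brings Aurka to the spindle, and Nusap1 bundles microtubules. All 5 spindle genes were lower in FHS rats at an unadjusted p under 0.05, with a median of −0.54. Kif2c read 5.09, 4.94, 5.26 and 5.06 in FHS rats, against 5.74, 5.39, 5.38 and 5.45 in CHS rats. The FNS rats had 5.31, 5.36, 5.25 and 5.41, against 5.71, 5.70, 5.74 and 5.56 in CNS rats. Kif2c was the single gene of the 44 in which the fructose rats lay below all water rats on both chows. On the normal-salt chow alone that is 2.27% of the 44 genes, near the 1.62% of all rows. The share of all rows that did so on both chows was not counted. Its differences were −0.40 (SE 0.10, unadjusted p = 0.000934, and 0.22 after adjustment by limma) on the high-salt chow and −0.34 (SE 0.10, unadjusted p = 0.00304, and 1 after adjustment by limma) on the normal-salt chow. Tpx2 read 6.38, 5.42, 6.14 and 6.40 in FHS rats and 7.11, 6.84, 6.53 and 6.54 in CHS rats. On the normal-salt chow its values were 6.84, 6.65, 6.48 and 7.24 with fructose and 6.77, 6.76, 7.25 and 7.02 with water. Rat 14 was again the lowest of the FHS rats, and the Tpx2 difference of −0.67 (SE 0.22) ran from −0.78 to −0.45 when each rat was left out in turn.

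Kif20a, Kif20b and Kif23 are kinesins of the central spindle or midbody, Prc1 bundles its microtubules, and Ect2 acts in building the contractile ring, with Arhgap11a as the remaining gene of this role. All 6 were lower in FHS rats at an unadjusted p under 0.05, with a median of −0.69. Arhgap11a read 6.06, 5.50, 5.70 and 6.31 in FHS rats, against 7.25, 6.80, 6.73 and 6.55 in CHS rats. The FNS rats had 6.69, 6.55, 6.49 and 6.90, against 6.97, 6.85, 7.21 and 7.01 in CNS rats. The 4 FHS rats were below the other 12. Its difference was −0.94 (SE 0.18, unadjusted p = 7.12e-05, and 0.0967 after adjustment by limma) on the high-salt chow, 1.92-fold lower, and −0.35 (SE 0.18) on the normal-salt chow. Kif20b read 6.02, 5.78, 6.35 and 6.30 in FHS rats and 6.86, 6.58, 6.70 and 6.25 in CHS rats. On the normal-salt chow the values were 6.35, 6.54, 6.43 and 6.88 in FNS rats and 6.78, 6.72, 6.99 and 7.09 in CNS rats. CHS rat 12 lay within the FHS range for Kif20b, and the difference was −0.49 (SE 0.16, unadjusted p = 0.00806, and 0.367 after adjustment by limma).

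Top2a untangles the copied chromosomes, Mki67 is the antigen used to count dividing cells, and Ncapg and Ncapg2 are subunits of the condensins. All 4 were lower in FHS rats at the unadjusted level, with a median of −0.85. Top2a read 7.81, 7.69, 7.59 and 7.81 in FHS rats, against 8.81, 8.46, 8.52 and 8.45 in CHS rats. The FNS rats had 8.32, 8.14, 8.29 and 8.61, against 8.53, 8.47, 8.97 and 8.64 in CNS rats. The FHS rats lay below the other 12, and FNS rats 5 to 7 lay below the CNS rats while rat 8 lay among them. Top2a was 1.78-fold lower on the high-salt chow (unadjusted p = 9.21e-06 from limma), and when each rat was left out in turn the difference ran from −0.87 to −0.75 on the log2 scale. Mki67, named here after its values were seen, read 8.36, 8.25, 8.21 and 8.70 in FHS rats and 9.53, 9.15, 9.25 and 9.17 in CHS rats. Its FNS rats read 9.26, 9.36, 9.09 and 9.91 and its CNS rats 9.48, 9.76, 9.80 and 9.53, again with the FHS rats below all others. The Mki67 difference for FHS minus CHS was −0.90 (SE 0.16, unadjusted p = 5.66e-05, and 0.095 after adjustment by limma). Ncapg2 read 6.15, 6.44, 6.54 and 6.59 in FHS rats and 6.86, 6.84, 6.77 and 6.77 in CHS rats. The FNS rats were at 6.38, 6.41, 6.70 and 6.66 and the CNS rats at 6.69, 6.57, 6.89 and 6.71. The Ncapg2 difference on the high-salt chow was smaller than that of its relative Ncapg, −0.38 against −0.87 (SE 0.11 and 0.14), and in both genes the FHS rats lay below the CHS rats. Whether the 2 genes differ was not tested.

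**Figure D3:**
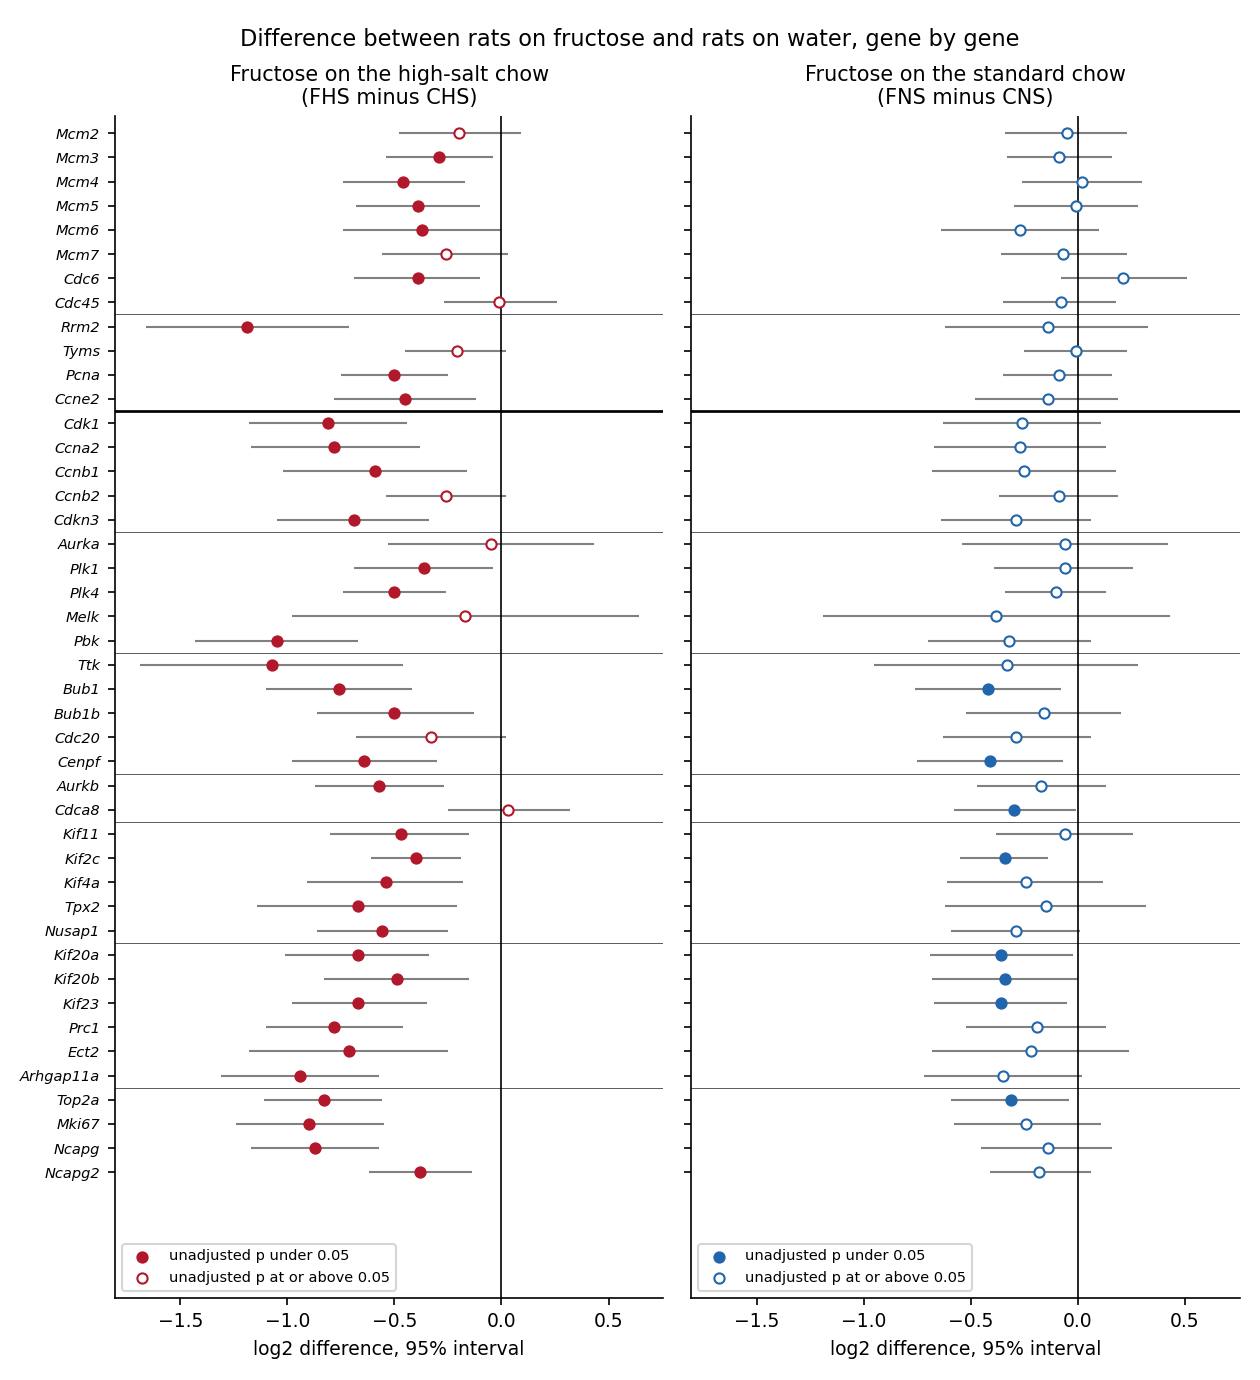
Points are log2 differences of the 44 genes with their 95% intervals from limma, for FHS minus CHS on the left and FNS minus CNS on the right, in the order of roles of the text with S phase above the thick line. Filled points have an unadjusted p under 0.05, which holds for 35 genes on the left and 8 on the right.

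With the normal-salt chow the 44 genes also lay mostly below 0 with fructose, with smaller differences. Most markers of fibroblasts, macrophages, endothelium and podocytes, given below with the other cell types, lay below 0 too. In FNS rats against CNS rats, 42 of the 44 genes had a difference below 0, against 50.3% of all rows, with a median of −0.21. At an unadjusted p under 0.05, 8 were lower, against 2.33% of all rows. All 8 were mitosis genes, namely Bub1, Cenpf, Cdca8, Kif2c, Kif20a, Kif20b, Kif23 and Top2a. No gene of the 44 and no row of the table (0.0%) passed after adjustment by limma. The S phase genes had a median of −0.07, which was 0.01 without FNS rat 5, and the mitosis genes of −0.26. FNS rat 8 stood apart from rats 5 to 7, with a mitosis mean of 0.32 against −0.14 to −0.07. Without it 16 genes were lower and the median was −0.30, while without CNS rat 3, FNS rat 6 or FNS rat 7 there were 2, without FNS rat 5 there were 3, and without CNS rat 4 there were 4. The number of genes lower with fructose on the normal-salt chow therefore depended on single rats. The share of all rows called without each of these rats is not given here.

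FHS minus CHS and FNS minus CNS share no rats. Across the 44 genes the differences correlated at a Pearson r of 0.40 and a Spearman coefficient of 0.44, given as a description over genes measured on the same arrays, and 41 genes were below 0 in both. The difference was lower on the high-salt chow in 40 of the 44 genes, and in 44.7% of all rows. Tested gene by gene, (FHS minus CHS) minus (FNS minus CNS) was below 0 at an unadjusted p under 0.05 in 12 genes, against 2.09% of all rows, and in none after adjustment (0.0% of all rows, lowest adjusted p of the 44 genes 0.761 for Ncapg). The 12 were Mcm4, Cdc6, Rrm2 and Pcna of S phase and Cdk1, Plk4, Pbk, Prc1, Arhgap11a, Top2a, Mki67 and Ncapg of mitosis. The median of this difference was −0.34 over the 44 genes, and 0.03 over all rows. Without CHS rat 9 the count was 7, and over all 16 rats left out in turn it was 7 to 16. A larger response to fructose on the high-salt chow did not pass the adjusted threshold for any single gene.

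**Figure D4:**
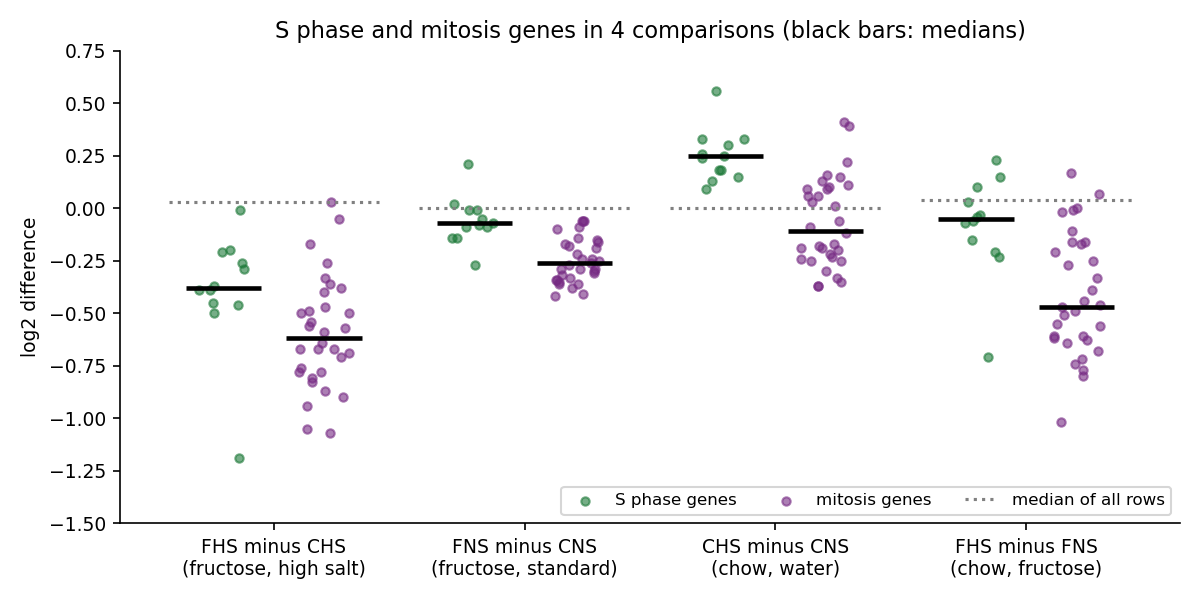
Each point is 1 gene, green for the 12 S phase genes and purple for the 32 mitosis genes, at its log2 difference in each of 4 comparisons, with black bars for the medians and dotted lines for the median of all rows. The mitosis median is below the S phase median in each comparison, at −0.62 and −0.38 for FHS minus CHS and at −0.47 and −0.05 for FHS minus FNS.

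S phase and mitosis genes had medians on opposite sides of 0 when the base chows were compared in water-drinking rats. In CHS rats against CNS rats all 12 S phase genes had a difference above 0, with a median of 0.25. The 32 mitosis genes had a median of −0.11 and 14 of them were above 0, where 50.7% of all rows were. At an unadjusted p under 0.05, 6 of the 44 genes were higher (Mcm5, Mcm7, Cdc6 and Pcna of S phase and Cdk1 and Cdkn3 of mitosis), against 8.72% of all rows. At the same level 3 mitosis genes were lower (Cdca8, Kif23 and Mki67), against 9.42% of all rows. These 9 genes became 3 without CNS rat 1 and 4 without CNS rat 2, CNS rat 3 or CHS rat 11. For the 44 genes together neither share stood far from that of all rows. Cdc6 was the 1 gene past the adjusted threshold, which 3.29% of all rows passed. It read 4.99, 4.56, 4.57 and 4.80 in CHS rats, against 4.40, 3.88, 4.30 and 4.10 in CNS rats, and the groups did not overlap. In FHS rats it read 4.38, 4.58, 4.36 and 4.03, and in FNS rats 4.45, 4.28, 4.34 and 4.44. Cdc6 rose with the high-salt chow in water-drinking rats, by 0.56 (SE 0.14, adjusted p = 0.0378 from limma). The call was lost without CNS rat 2, 3 or 4, FNS rat 5 or 8, or CHS rat 9, 10 or 12, and the gene is dim. A dimmer row of Mcm3 had a difference of 0.80 (adjusted p = 0.0343 from limma), where the row used had 0.13. CHS minus CNS shares its CHS rats with FHS minus CHS, so a high CHS level moves the 2 comparisons in opposite directions.

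With fructose in both groups, most genes that were lower on the high-salt chow were mitosis genes. In FHS rats against FNS rats, 37 of 44 genes had a difference below 0, against 43.1% of all rows. At an unadjusted p under 0.05, 22 were lower, against 9.38% of all rows. Of these 22 genes, 21 were of mitosis and 1, Rrm2, of S phase. The median was −0.47 for mitosis and −0.05 for S phase, and the S phase value was 0.01 without FNS rat 8. All 4 FHS rats were below all 4 FNS rats in 17 genes, each of them of mitosis, against 6.12% of all rows. Here 8 genes fell past the adjusted threshold, which 5.36% of all rows passed in either direction. They were Ccna2, Aurkb, Kif23, Prc1, Arhgap11a, Top2a, Mki67 and Ncapg. Mki67 had the largest difference, −1.02 (SE 0.16, unadjusted p = 1.31e-05, and 0.00304 after adjustment by limma), or 2.03-fold lower. Arhgap11a, Kif23 and Top2a fell by 0.77, 0.64 and 0.61 on the log2 scale (adjusted p = 0.0217, 0.0226 and 0.014 from limma). Kif23 read 5.93, 5.62, 5.79 and 6.09 in FHS rats, 6.79, 6.41, 6.56 and 6.34 in CHS rats, 6.53, 6.40, 6.17 and 6.89 in FNS rats and 6.81, 6.82, 7.02 and 6.78 in CNS rats. Both Top2a and Mki67 passed whichever rat was left out, while the count of genes ran from 2, without FNS rat 8, to 11. It was 3 without FNS rat 5, FHS rat 14 or FHS rat 15, and 5 without FNS rat 6. By the ANOVA of the study's methods on the 2 groups alone none of the genes passed after adjustment, although 18 did at an unadjusted p under 0.05. The share of all rows called by that ANOVA is not given here. The chow comparison with fructose shares its FHS rats with FHS minus CHS and is not a separate observation of them.

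Per rat, the mean of the centred mitosis values was −0.36, −0.55, −0.44 and −0.32 in FHS rats, 0.43, 0.10, 0.18 and 0.00 in CHS rats, −0.07, −0.13, −0.14 and 0.32 in FNS rats and 0.16, 0.15, 0.42 and 0.25 in CNS rats. The S phase mean was −0.02, −0.23, −0.24 and −0.12 in FHS rats, 0.46, 0.13, 0.22 and 0.14 in CHS rats, −0.26, −0.09, −0.07 and 0.13 in FNS rats and −0.06, −0.11, 0.12 and −0.01 in CNS rats. The FHS rats were below all other rats for mitosis, but for S phase they overlapped the FNS and CNS rats. Mitosis minus S phase was −0.33 to −0.19 in FHS rats, −0.14 to −0.02 in CHS rats, −0.07 to 0.19 in FNS rats and 0.21 to 0.29 in CNS rats. These are descriptions with no test, since the genes were chosen with results of these arrays known. With group means removed, pairs of mitosis genes had a median Pearson r of 0.50 over the 16 rats (496 pairs), pairs of S phase genes 0.41 (66 pairs) and mixed pairs 0.41 (384 pairs). Correlations for pairs of other rows are not given, so these values cannot be called particular to the set. The S phase and mitosis means of the rats, with group means removed, had a Pearson r of 0.85. It was 0.69 without FNS rat 8 and CHS rat 9. Rats that were high for a gene of the set were often high for others, and the 44 genes are not 44 independent measurements.

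**Figure D5:**
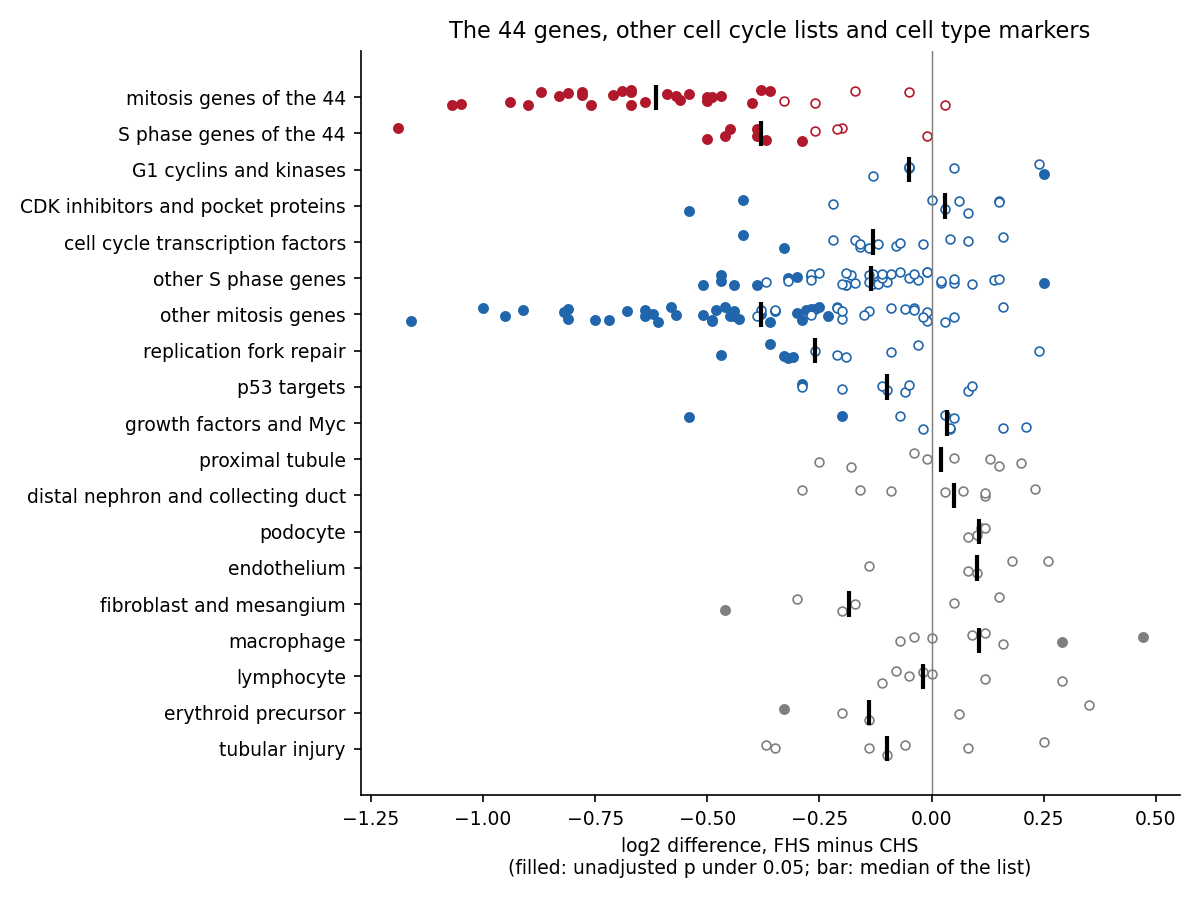
Each point is 1 gene at its log2 difference for FHS minus CHS, filled where the unadjusted p was under 0.05, and black bars are list medians. Red marks the 44 genes, blue other lists of the cell cycle and growth, and grey markers of cell types. The 44 genes' mitosis median of −0.62 is the lowest of the lists, the lowest single gene is Rrm2 at −1.19, and the medians of the marker lists lie between −0.18 and 0.11. The 44 genes and the lists were chosen with earlier results of these data known, so this order is a description only.

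Lists of further genes, chosen by role but with earlier results of these data known, were compared in the same way. Of 55 other mitosis genes measured (of 61 listed), 52 had a difference below 0 in FHS rats against CHS rats, 35 were lower at an unadjusted p under 0.05, where 3.57% of all rows were, none was higher (6.06% of all rows), and the median was −0.38. Esco2, an enzyme of sister chromatid cohesion, read 5.38, 5.03, 5.50 and 5.66 in FHS rats, against 6.72, 6.43, 6.27 and 6.14 in CHS rats, with no overlap. Aspm, a spindle pole protein, read 5.79, 5.26, 5.47 and 5.53 in FHS rats, against 6.51, 6.28, 6.28 and 5.98 in CHS rats, also with no overlap. Their differences were −1.0 and −0.75 (adjusted p = 0.095 and 0.0947 from limma). The kinetochore genes Ndc80, Nuf2, Spc25 and Knl1, picked out after their values were seen, had differences of −0.95, −0.82, −0.81 and −0.91. Of 42 other S phase genes measured (of 45), 34 were below 0, 8 were lower and 1, Dut, was higher at the unadjusted level, with a median of −0.13. Pola1, a subunit of the polymerase that starts new strands, read 7.31, 7.08, 7.42 and 7.48 in FHS rats and 7.92, 7.77, 7.83 and 7.52 in CHS rats. Fen1, which trims Okazaki fragments, read 5.61, 5.10, 5.29 and 5.44 in FHS rats and 5.96, 5.87, 5.70 and 5.96 in CHS rats, so neither gene overlapped between these groups. Genes that repair the fork had a median of −0.26, with 5 of 11 lower at the unadjusted level. The share of all rows to set beside these counts, and beside those of the lists that follow, is the same 3.57% lower and 6.06% higher. Beside the counts of genes below 0 it is 43.6%.

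The remaining lists hold genes that act before S phase or control the cycle. Of 7 G1 cyclins and kinases measured, none was lower in FHS rats against CHS rats and 1, Ccnd2, was higher at the unadjusted level, with a median of −0.05. Ccnd1, cyclin D1, which starts the passage through G1, read 9.44, 9.79, 9.33 and 9.47 in FHS rats, 9.23, 9.28, 9.23 and 9.35 in CHS rats, 8.65, 8.90, 8.82 and 8.92 in FNS rats and 8.41, 8.88, 8.64 and 8.74 in CNS rats. It rose with the high-salt chow, by 0.69 in fructose rats and by 0.60 in water rats (adjusted p = 0.00416 and 0.0117 from limma), and its difference for FHS minus CHS was 0.24 (unadjusted p = 0.057). Among 9 inhibitors of cyclin-dependent kinases and pocket proteins 2 were lower at the unadjusted level, the median was 0.03 (−0.04 with arrays centred), and Rbl1 (p107), a pocket protein whose own gene is an E2F target, had the smallest p. Rbl1 read 7.19, 7.09, 7.24 and 7.28 in FHS rats, against 8.03, 7.48, 7.70 and 7.76 in CHS rats, with no overlap. Of 14 transcription factors of the cycle 11 had a difference below 0, with a median of −0.13, and 2 were lower at the unadjusted level, E2f5 and Foxm1. Foxm1, an activator of mitosis genes, read 5.87, 5.98, 5.91 and 5.84 in FHS rats, against 6.36, 6.24, 6.25 and 6.08 in CHS rats, with no overlap and a difference of −0.33 (adjusted p = 0.406 from limma). Of 9 targets of p53 measured, 1 was lower (Ccng1), with a median of −0.10, and of 10 growth factor genes, with receptors and Myc, 2 were lower, Igf1 and Myc, with a median of 0.04 that was −0.03 with arrays centred.

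Among other mitosis genes in FHS rats against FNS rats, 9 fell past the adjusted threshold (Nuf2, Spc25, Knl1, Sgo2, Kif18b, Aspm, Cdc25b, Depdc1 and Esco2) and 1 rose of the 55, against 5.36% of all rows in either direction. The gene that rose was Wee1, the kinase that holds Cdk1 inactive. Wee1, named after its values were seen, had mean log2 values of 8.21 in FHS rats, 8.18 in CHS rats, 7.47 in FNS rats and 7.50 in CNS rats, so that it was higher on the high-salt chow with either drink (0.74 with fructose and 0.67 with water, adjusted p = 0.0229 and 0.0433 from limma). Its difference for FHS minus CHS was 0.03.

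Markers of the cell types of the cortex were set beside these values. In FHS rats against CHS rats the medians were 0.02 for 8 proximal tubule markers, 0.05 for 8 of the distal nephron and collecting duct, 0.11 for 4 of podocytes, 0.10 for 5 of endothelium, −0.18 for 6 of fibroblasts and mesangium, 0.10 for 8 of macrophages, −0.02 for 7 of lymphocytes, −0.14 for 5 of erythroid precursors and −0.10 for 7 of tubular injury. With arrays centred, a scaling added for these lists after the data were seen, the first 2 of these medians became −0.05 and −0.02, and the others kept their sign. At an unadjusted p under 0.05 Col1a1 and Klf1 were lower, and Cd74 and Cx3cr1 higher. The per-rat means over the fibroblast markers ran from 8.70 to 9.12 in FHS rats and from 8.89 to 9.10 in CHS rats, and those over the macrophage markers from 7.51 to 7.81 in FHS rats and from 7.43 to 7.71 in CHS rats, so both overlapped. In FNS rats against CNS rats, where the 44 genes had a median of −0.21, all 6 fibroblast and mesangium markers had a difference below 0, with a median of −0.24, and 7 of 8 macrophage markers did, with a median of −0.17. Their per-rat means ran from 8.59 to 8.89 in FNS rats and from 8.86 to 9.10 in CNS rats for fibroblasts, and from 7.36 to 7.69 in FNS rats and from 7.55 to 7.80 in CNS rats for macrophages. Col3a1, a fibrillar collagen chosen after its values were seen, averaged 8.50 in FNS rats and 9.06 in CNS rats, a difference of −0.56 (SE 0.11, unadjusted p = 0.000144, adjusted p = 0.753 from limma). For FNS minus CNS 4 of 5 endothelium markers and all 4 podocyte markers were below 0 as well (medians −0.13 and −0.05). By contrast, 7 of 8 proximal tubule markers were above 0 (median 0.14). Their per-rat means, 12.12 to 12.20 in FNS rats and 12.02 to 12.07 in CNS rats, did not overlap. The other marker medians lay between −0.03 and 0.04, and 50.3% of all rows were below 0. In FHS rats against FNS rats the marker medians lay between −0.16 and 0.15, and in CHS rats against CNS rats between −0.24 and 0.18. The part of any of these cell types in the differences of the cell cycle genes was not tested.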

How the data were processed

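RNA from the superficial renal cortex of 16 rats was hybridised to 1 Affymetrix array (RaGene-2_0-st) per rat, and groups were taken from the labels. The authors normalized the arrays by RMA in Affymetrix Expression Console and deposited log2 values per TranscriptClusterID, 36685 rows ranging from 1.76 to 13.8. No intensity of single probes was used here, so background correction and normalization could not be repeated. The correlation between any 2 arrays was 0.968 to 0.990. No reads or counts exist for arrays, and the 4 arrays per group limit the precision.

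Symbols were taken from the platform annotation. A symbol with several rows took the row of highest mean, and rows paired with several symbols named no gene. A linear model with 1 mean per group was fitted over all arrays and rows with limma 3.58.1 (R 4.3.3), with moderated variances, and p-values were adjusted by Benjamini and Hochberg over all rows, with a threshold of 0.05. The model was tested on simulated data with 200 of 36685 rows changed by 1 log2 unit for FHS minus CHS. Of these 200 rows 149 were called, beside 9 unchanged rows, and the mean estimate over all 200 was 0.974. Summaries and figures were made with Python 3.11.15, numpy 2.4.6, pandas 2.3.3, scipy 1.17.1 and matplotlib 3.10.9.

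The genes and the lists were chosen with earlier results of these data known. Counts of called genes in the fit of all arrays and rows are therefore read against the share of all rows called in the same comparison. That share is not given for the alternatives or for rats left out, and no list was tested. Values in every rat are given for the gene with the smallest and the gene with the largest p for FHS minus CHS in each of 9 roles, and the 2 genes of smallest p could be named from each other list. Where Mki67, Cdc6, Kif23, Ccnd1 or another gene is given beyond that rule, the choice followed a look at the values. Alternatives were a filter on dim rows (18342 kept), quantile normalization, centring of arrays, the arrays of each comparison alone, a variance trend with intensity, the mean of all rows of a symbol, an ANOVA of the 2 groups as in the study's methods, Ccna2 counted as S phase, the set without Ccna2, Plk4, Melk and Pbk, and each rat left out in turn. Promoter windows came from RefSeq (GRCr8).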

Additional observations from a re-analysis of the deposited data

Results flagged for a closer look

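In 12 of 184 groups of 4 rats 1 rat lay far from the other 3 (by the 95% limit of Dixon for the gap to the nearest rat), and chance gives about 5% of groups. Among S phase genes, CNS rat 2 was low for Tyms (9.44 against 9.54 to 9.55) and for Pcna (9.08 against 9.29 to 9.33). CNS rat 2 was also low for Melk (5.78 against 7.16 to 7.28), and CHS rat 11 was high for it (7.39 against 6.06 to 6.27). CNS rat 3 was high for Plk1 (7.44 against 7.16 to 7.2) and for Kif23 (7.02 against 6.78 to 6.82). CHS rat 9 was high for Cenpf (7.34 against 6.90 to 6.96). FHS rat 14 was high for Cdca8 (5.14 against 4.57 to 4.64) and low for Kif11 (7.24 against 7.94 to 8.05). FNS rat 7 was low for Kif11 (7.97 against 8.18 to 8.2), and FHS rat 15 was low for Nusap1 (6.02 against 6.35 to 6.37). The mean of the centred mitosis genes was high in FNS rat 8 (0.32 against −0.14 to −0.07).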

How the results depend on the processing

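Over 9 alternatives and 16 rats left out in turn, the median differences for FHS minus CHS stayed below 0, as did those of the mitosis genes in FHS minus FNS, and the count of genes lower in FHS minus CHS at an unadjusted p stayed within 1.5 times of 35. Values near 0 changed sign. The median of the 44 genes for CHS minus CNS, 0.08, was −0.02 without CHS rat 9, and the mitosis minus S phase median of the difference between the chows, −0.09, was 0.02 without it. Aurka and Cdc45 reached 0.01 and 0.05 for FHS minus CHS when single rats were left out. Counts after adjustment by limma moved most. The share of all rows called under each alternative, or without a rat, is not given beside the counts that follow. For FHS minus CHS the 0 genes became 4 with dim rows left out and 1 (Top2a) with a variance trend, and stayed 0 whichever rat was left out. For CHS minus CNS the 1 gene (Cdc6) became 0 with dim rows left out (Cdc6 is itself among them), with the arrays of the comparison alone and by ANOVA, and 0 to 1 over the rats left out. For FHS minus FNS the 8 genes became 15 with dim rows left out, 13 with arrays centred, 3 with the arrays of the comparison alone, 0 by ANOVA and 2 to 11 over the rats left out. At an unadjusted p, the genes in FNS minus CNS numbered 3 by ANOVA and 2 to 16 over the rats left out, those in CHS minus CNS 3 to 9, and those in the difference between the chows 7 to 16. Leaving out dim rows means fewer rows tested and taking the arrays of the comparison alone means fewer arrays, and beyond that the cause of the changes was not tested. With 4 rats per group, differences of genes such as Melk (standard error 0.38) are poorly bounded. No paired analysis was possible because the labels number the rats 1 to 16 and no number is shared between groups.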
